A study of Mus musculus with 20 samples.

Results

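Lysosomal hydrolases and the lysosomal proton pump were examined as a named list of 37 mouse genes, all found by symbol among the 46603 identifiers of the deposited count table. The list names genes by function and its rule uses no measured value, but it was chosen with earlier results of these data known. It holds 24 genes of hydrolases and membrane proteins, namely 8 proteases, 7 glycosidases, 4 genes of lipid and thioester degradation and 5 of the lysosomal membrane and cholesterol export. The other 13 encode the V-ATPase, with 5 subunits of the membrane sector V0, 6 of the cytosolic sector V1 and 2 accessory subunits.

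Lysosomal hydrolases are made in the endoplasmic reticulum, tagged in the Golgi with mannose 6-phosphate and carried to the lysosome, where they cut proteins, glycans and lipids at acidic pH. The V-ATPase makes that pH: the V1 sector hydrolyses ATP and turns a rotor that drives protons through V0. Many of these genes are targets of TFEB, TFE3 and MITF, factors of the MiT family that bind an E-box motif and that mTORC1 at the lysosome holds in the cytosol when nutrients are plentiful. In CD8 T cells the same compartment is related to the cytotoxic granule, and in pigment cells to the melanosome.

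The study's title concerns blocking the calcium pump SERCA2b during T cell activation and in tumor cells. The melanoma groups were B16F10 cells, a mouse melanoma line, with a control genotype or a knockout (KO) of Ccdc101 (now named Sgf29, a subunit of the SAGA chromatin complex), each given vehicle (DMSO) or thapsigargin (TG, an inhibitor of SERCA pumps) at 50 ng/mL for 8 h. The T cell groups were OT-I/Cas9 CD8 T cells, which carry 1 transgenic T cell receptor. Control T cells were resting or were activated on anti-CD3 antibody (2.5 µg/mL, 24 h), each with vehicle or TG, and T cells with a KO of Atp2a2, the gene of SERCA2, were labelled resting or activated and had vehicle only. All melanoma cultures contained puromycin, and all T cell cultures contained puromycin, IL-2, IL-7 and IL-15. Each of these 10 groups has 2 libraries. The sources used here do not say whether the 2 came from separate cultures or how many clones or mice a group represents, so p-values measure only the spread between these libraries, which may be technical.

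The 20 libraries hold 9985311 to 17462770 counted reads. Levels below are CPM, read counts scaled to a common library size, after TMM scaling over all 20 libraries, and both library values are printed in place of a mean and SD. "Rose", "fell", "higher" and "lower" in a comparison mean an adjusted p below 0.05 by edgeR's quasi-likelihood test, with p-values adjusted by Benjamini and Hochberg's method across every gene in the fit. Fold changes are on the log2 scale with their standard errors (SE). In bulk libraries, fewer cells of a type and less RNA per cell cannot be told apart. Exons of 13 members overlap exons of another gene, and whether the counting used strand is not given in the sources used here. This makes the values of Ppt1 (overlapping Cap1), Ctsb (Fdft1), Ctsz (Nelfcd), Glb1 (Tmppe) and Npc1 (Rmc1) less certain.

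The labels were checked before the results. The 7 melanocytic markers summed to 15924 and 16142 CPM in control melanoma with vehicle and to between 0.312 and 7.80 CPM in the T cell libraries. The 7 CD8 T cell markers summed to at most 7.08 CPM in melanoma and at least 2241 CPM in T cells. Sgf29 was lower in the Ccdc101 KO (log2 -0.59 with vehicle, -0.46 with TG), and Atp2a2 was lower in the activated Atp2a2 KO (log2 -0.63), so reads from both targeted genes remained. The 2 libraries labelled resting Atp2a2 KO went against their label. Their 10 activation markers summed to 37117 and 36932 CPM, against 36830 and 37600 in activated control and 14368 and 13862 in resting control cells. Tested against the activated KO, 0.119% of all genes were higher and 0.469% lower in them, and 0 of 36 members were called by edgeR or by DESeq2, with 3 members at an unadjusted p under 0.05 by edgeR. No statement on a resting KO is drawn from them.

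Summed over their members, the 2 classes had different profiles across the groups. The 13 V-ATPase members summed to 2323 and 2281 CPM in control melanoma with vehicle and to 1174 and 1141 CPM in resting control T cells with vehicle. The 24 hydrolase and membrane members were closer between the cell types, with 4119 and 4133 CPM in melanoma against 3654 and 3553 CPM in resting T cells. Without TMM scaling this gap was wider, with group means of 4458 and 3303 CPM. The unscaled V-ATPase means were 2487 and 1061 CPM. The sums were described and not tested. In T cells the hydrolase sum was smaller with activation (2277 and 2321 CPM), with TG at rest (2210 and 2247 CPM) and with both (1960 and 1901 CPM). No library of these groups reached a resting vehicle library. The V-ATPase sum stayed between 1136 and 1423 CPM in all T cell libraries and was largest with TG in activated cells. Ctsd, the aspartic protease cathepsin D, made up 29.6% of the hydrolase sum in resting T cells, and without Ctsd the resting vehicle libraries still stood highest, at 2561 and 2511 CPM, against 1639 to 1950 CPM in the other control T cell libraries.

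**Figure D1:**
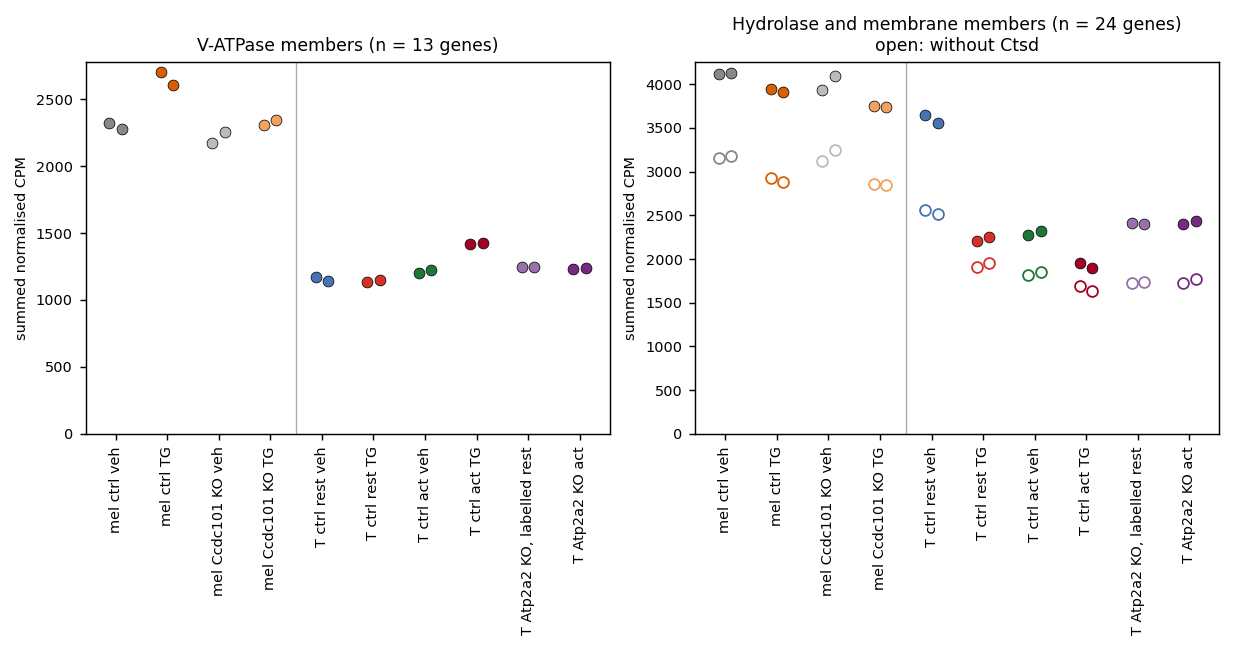
Summed normalised CPM of the 13 V-ATPase members (left) and the 24 hydrolase and membrane members (right) in each of the 20 libraries, 2 per group; open circles on the right leave out Ctsd. The V-ATPase sum separates melanoma (all libraries at or above 2172) from T cells (all at or below 1423), while the hydrolase sum is 3553 or more in resting control T cells with vehicle and 2440 or less in every other T cell group.

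Levels were compared between genes only per kilobase of exon. By that measure Ctsd led in control melanoma (411 and 404 CPM per kb), in resting T cells (465 and 443) and in activated T cells (195 and 201). Psap, whose product is cut into the saposins that help lipid hydrolases, came next in melanoma and resting T cells, at 187 and 185 and at 189 and 188 CPM per kb, so the order of these 2 genes was beyond their spread. In activated T cells Ctsz, the carboxypeptidase cathepsin Z, held that place at 134 and 137 CPM per kb. At the other end, Ctsh (cathepsin H) was at or under 0.0799 CPM per kb in both vehicle groups of control T cells. Ctss, the cathepsin S of antigen-presenting cells, had 0 counts in all 8 melanoma libraries.

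Melanoma and resting T cells with vehicle differed at most members. All 13 V-ATPase members were higher in melanoma, and of the 24 hydrolase and membrane members 12 were higher and 8 lower. Over all 37 members 25 were higher and 8 lower, where 40.8% of all genes tested were called higher and 43% lower, and the median log2 difference of the members was 0.68, against -0.04 for all genes. The glycosidases were 5 higher and 0 lower of 7, and the membrane and cholesterol export genes 1 higher and 4 lower of 5. By level, V-ATPase subunits outside the member list went both ways. Atp6v0e had 71.6 and 68.7 CPM in melanoma and 104 and 90.5 CPM in resting T cells, and Atp6v1g2 had 0.746 and 1.13 against 6.33 and 7.29 CPM. Atp6v1f was near equal, while Tcirg1, Atp6v0e2 and Atp6v1g1 had more CPM in melanoma.

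Ctsl, the cysteine protease cathepsin L, stood at 127 and 123 CPM in melanoma and 1.45 and 2.17 CPM in resting T cells, a log2 difference of 6.12 (SE 0.11). Hexa, the alpha chain of beta-hexosaminidase, stood at 229 and 236 CPM against 40 and 35.9 CPM (log2 2.61, SE 0.05). For the V1 stalk subunit Atp6v1e1 the values were 278 and 277 CPM against 42.9 and 41.2 CPM (log2 2.72, SE 0.05). These were picked as called members, with adjusted p-values of 3.21e-54, 3.21e-55 and 1.94e-57. Smpd1 and Npc2 were among the members lower in melanoma. Smpd1, acid sphingomyelinase, had 40.8 and 40.3 CPM in melanoma and 160 and 158 CPM in resting T cells (log2 -1.97, SE 0.05). The cholesterol carrier Npc2 had 163 and 162 against 363 and 348 CPM (log2 -1.13, SE 0.04). Ctss was at 67.5 and 68.4 CPM in resting T cells. Against a floor of 3 counts over the control melanoma vehicle group it was at least 716-fold lower in melanoma. Of the alternative V0 subunits a1 and a2, Atp6v0a1 stood at 26.9 and 27.8 CPM per kb in melanoma and 4.82 and 4.99 in resting T cells, and Atp6v0a2 stood at 38.1 and 36.2 against 29.2 and 29.2. The a3 subunit gene Tcirg1, outside the member list, was above a1 in both, at 34.5 and 34.4 against 21.6 and 21.6 CPM per kb.

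TG in control melanoma moved the list in both directions. Of 36 members tested 18 rose and 12 fell, against a background of 35.7% of all genes higher and 36.1% lower, and the median log2 change was 0.10, against 0.00 for all genes. The V-ATPase members rose in 7 and fell in 3 of 13 cases. Among the 5 membrane and cholesterol export genes 4 rose and 1 fell. Lipid and thioester degradation had 1 rise and 3 falls of 4.

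Proteases included the clearest rise. Ctsl (chr13:64359337-64370890, minus strand, GRCm38) went from 127 and 123 CPM with vehicle to 286 and 273 CPM with TG, a log2 change of 1.17 (SE 0.04, adjusted p = 5.73e-27). Ctsh rose as well but from a low level, from 2.3 and 1.9 to 7.2 and 5.6 CPM (log2 1.60, SE 0.21). Tpp1, tripeptidyl peptidase 1, fell from 212 and 220 to 128 and 136 CPM (log2 -0.70, SE 0.04). Ctsd, the most abundant member, changed little, from 966 and 950 to 1024 and 1021 CPM (log2 0.10, SE 0.03), and its call was lost without the filter on low counts.

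Glycosidases held the largest fall. Gusb (chr5:129989011-130003049, minus strand), beta-glucuronidase, dropped from 171 and 166 CPM to 46 and 44.9 CPM, a log2 change of -1.89 (SE 0.05, adjusted p = 2.68e-31). Glb1, the lysosomal beta-galactosidase, fell from 55.3 and 54.9 to 28.1 and 29.9 CPM (log2 -0.92, SE 0.07). Gla, alpha-galactosidase A, rose instead, from 10.1 and 11.2 to 20.3 and 20.2 CPM (log2 0.94, SE 0.12), and Neu1, the lysosomal sialidase, rose by log2 0.33. For Hexa, Gaa and Naglu the log2 changes were -0.05, 0.01 and -0.04 and none passed the test. Glycosidases thus split, with Gusb and Glb1 falling and Gla and Neu1 rising.

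The proton pump genes that rose sat in both sectors. Atp6v1h (chr1:5070018-5162529, plus strand), the regulatory H subunit of V1, went from 92.7 and 87.8 to 204 and 194 CPM (log2 1.15, SE 0.04). Atp6v0d1 (chr8:105524465-105566047, minus strand), the d subunit that couples the rotor to V1, went from 154 and 145 to 266 and 256 CPM (log2 0.81, SE 0.04). Atp6v1b2, the B subunit beside the catalytic sites, went from 271 and 269 to 448 and 435 CPM (log2 0.72, SE 0.04). The adjusted p-values of these rises, picked as called members, were 1.39e-25, 1.87e-21 and 1.40e-21. Subunits of the same enzyme moved the other way or did not pass. Atp6v1e1 fell from 278 and 277 to 170 and 151 CPM (log2 -0.78, SE 0.04), Atp6v0a2 fell by log2 0.47, and the catalytic subunit gene Atp6v1a had a log2 change of 0.06 that did not pass the test. The rise of Atp6v0a1 (log2 0.10) was lost without control melanoma vehicle replicate 1 or TG replicate 2 and with DESeq2.

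The MiT family itself moved in opposite directions. Tfe3 rose from 52.1 and 55.8 to 112 and 107 CPM with TG in control melanoma, while Tfeb fell from 17.3 and 16.3 to 9.39 and 7.73 CPM. Mitf, the melanocyte factor, fell from 472 and 468 to 322 and 321 CPM. Tfec was too low to test. Other lysosomal hydrolases outside the member list rose in 5 and fell in 16 of 28 tested genes, with Scpep1, a serine carboxypeptidase, rising (log2 0.94) and Manba, beta-mannosidase, falling (log2 -1.81). Of 24 other lysosomal membrane proteins 12 rose and 9 fell, and Hgsnat, which acetylates heparan sulfate at the membrane, fell by log2 2.01. Mannose 6-phosphate sorting genes rose in 2 and fell in 6 of 10, among them Gnptab, the catalytic precursor of the tagging enzyme (log2 -1.10), and the receptor gene Igf2r (log2 -0.73). Genes that dock mTORC1 at the lysosome rose in 8 and fell in 2 of 18. The remaining V-ATPase subunits rose in 2 and fell in 3 of 7, and cathepsin inhibitors rose in 3 and fell in 2 of 5. The melanocytic markers fell in 6 of 7 cases in the same libraries, with sums of 13535 and 13527 CPM after TG, and their part in these changes was not tested.

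**Figure D2:**
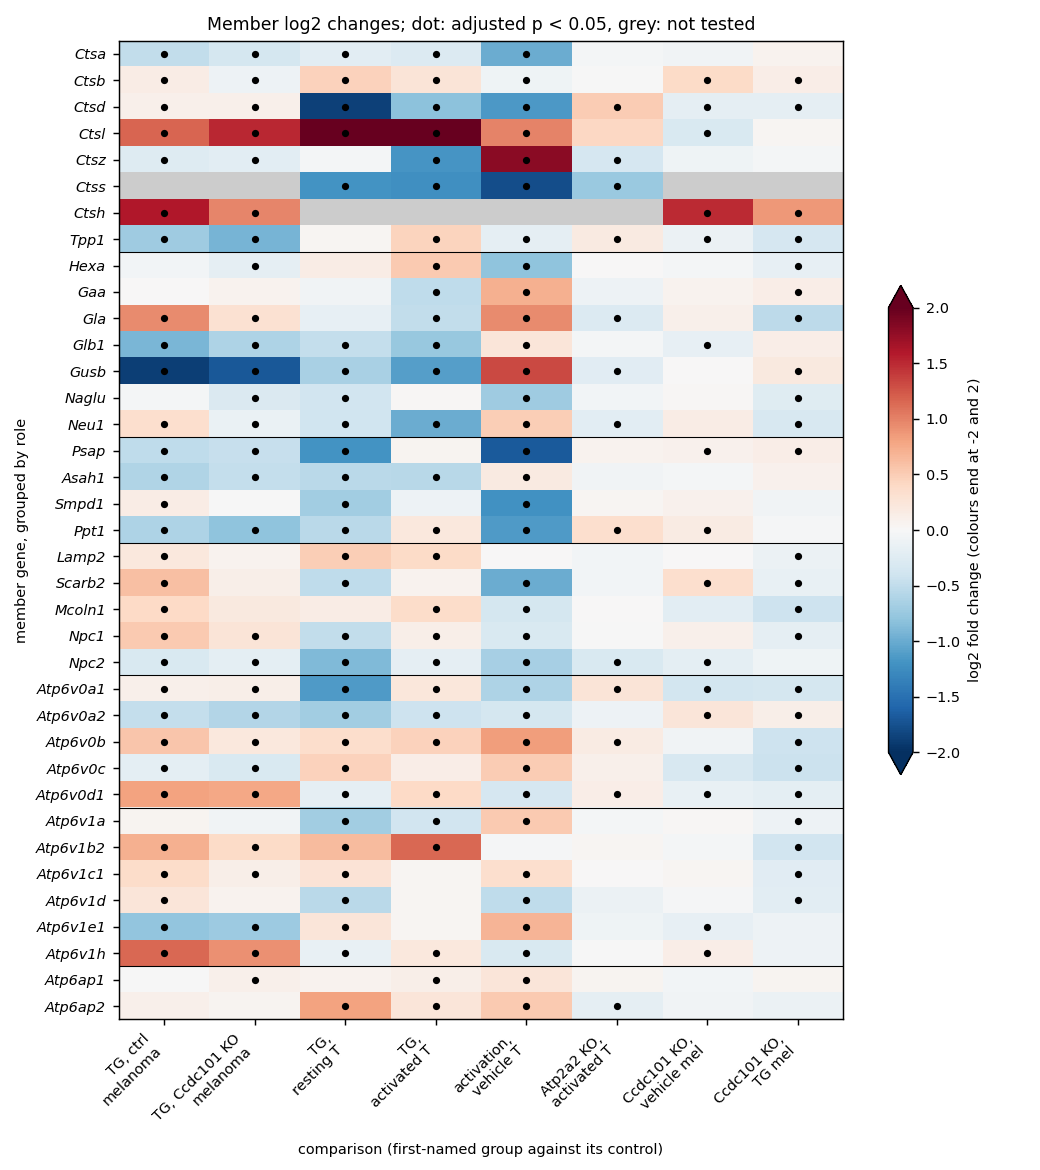
Log2 change of each member (rows, grouped by role and divided by lines) in 8 comparisons (columns); red is higher and blue lower in the first-named condition, colours end at -2 and 2, dots mark an adjusted p below 0.05 and grey cells were not tested. The Ctsl row is red in all 4 TG columns and the Gusb row blue in all 4. With TG, Ctsd is called lower in T cells only, and Psap in both melanoma genotypes and in resting T cells.

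Promoter letters were read for the E-box that MiT factors bind. RefSeq windows (GRCm38.p6, 250 bases before to 50 after a transcript start) were available for 29 of the 37 members. CACGTG, which reads the same on both strands, occurred in windows of 11 of these 29 genes (37.9%), compared with 2187 of 27025 genes (8.09%) and 7.15% of all 32851 windows. TCACGTGA, the same core with the flanks that MiT factors prefer and therefore a subset of the CACGTG matches, occurred in 6 members (20.7%), compared with 304 genes (1.12%) and 0.974% of windows. The 6 are Ctsa, Ctsd, Mcoln1, Atp6v0d1, Atp6v1a and Gla. A match is a description of letters, not a site. The 3 with the largest change in TG-treated control melanoma are shown to set the sequence beside the response, with TCACGTGA in capitals. They lie at chrX:134600956-134601255 (minus strand), chr8:105566015-105566314 (minus strand) and chr2:164833523-164833822 (plus strand, 1 of 2 Ctsa windows).
Gla: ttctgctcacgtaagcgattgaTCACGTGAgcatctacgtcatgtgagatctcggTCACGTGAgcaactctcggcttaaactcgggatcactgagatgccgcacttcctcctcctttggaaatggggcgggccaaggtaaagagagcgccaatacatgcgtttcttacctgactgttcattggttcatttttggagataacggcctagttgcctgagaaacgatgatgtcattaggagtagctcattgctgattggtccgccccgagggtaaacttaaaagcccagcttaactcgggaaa
Atp6v0d1: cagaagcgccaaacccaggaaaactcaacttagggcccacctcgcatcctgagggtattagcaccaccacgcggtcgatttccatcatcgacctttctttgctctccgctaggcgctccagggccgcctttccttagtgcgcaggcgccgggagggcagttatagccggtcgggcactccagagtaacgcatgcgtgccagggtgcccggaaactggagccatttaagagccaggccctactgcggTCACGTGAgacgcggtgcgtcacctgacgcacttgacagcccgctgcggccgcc
Ctsa: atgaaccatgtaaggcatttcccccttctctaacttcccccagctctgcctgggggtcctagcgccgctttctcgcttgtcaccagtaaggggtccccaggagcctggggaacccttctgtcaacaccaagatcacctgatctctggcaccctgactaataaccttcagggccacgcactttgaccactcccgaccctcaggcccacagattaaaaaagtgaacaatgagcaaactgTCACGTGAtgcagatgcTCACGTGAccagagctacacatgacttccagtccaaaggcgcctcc
The Gla window holds the flanked motif at bases -228 and -195 from the start, the Ctsa window at -13 and 4, and the Atp6v0d1 window once, at -4. With TG in control melanoma Gla and Atp6v0d1 rose (log2 0.94 and 0.81) and Ctsa, the protective protein and carboxypeptidase cathepsin A, fell (log2 -0.50). Of the other 3 with the flanked motif, Mcoln1, a lysosomal calcium channel gene, rose (log2 0.40), Ctsd rose by 0.10 and Atp6v1a did not pass. In resting T cells the same TG comparison gave log2 -0.16 for Gla, which did not pass, -0.19 for Atp6v0d1 and -0.21 for Ctsa, both lower. Genes with the same 8 letters therefore differed in direction within a comparison and between cell types.

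In the Ccdc101 KO, TG raised 12 and lowered 16 of 36 members, where 34.1% of all genes rose and 36.3% fell. V-ATPase members again rose in 7 and fell in 3 of 13, but hydrolase and membrane members rose in 5 and fell in 13 of 23. Ctsl went from 98.2 and 103 to 279 and 293 CPM (log2 1.51, SE 0.04) and Gusb from 167 and 167 to 51.7 and 52 CPM (log2 -1.69, SE 0.05). Tfe3 rose and Tfeb and Mitf fell here too, with log2 changes of 1.21, -1.52 and -1.27. The sizes of the 2 TG responses are compared by their own test further on.

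With vehicle, the Ccdc101 KO gave small differences. Of 36 members 7 were higher and 9 lower, against 12.4% and 13.3% of all genes, and only Ctsh passed a change of 2-fold, from 2.3 and 1.9 CPM in control to 5.43 and 6.35 CPM in the KO (log2 1.49, SE 0.21). Ctsb, cathepsin B, was higher at 305 and 313 against 236 and 242 CPM (log2 0.39, SE 0.04), and Scarb2, the membrane protein that carries glucocerebrosidase to lysosomes, at 72.9 and 78.1 against 59.5 and 61.6 CPM (log2 0.34, SE 0.05). Atp6v0a1 was lower at 139 and 135 against 176 and 183 CPM (log2 -0.37, SE 0.04), and Ctsl at 98.2 and 103 against 127 and 123 CPM (log2 -0.30, SE 0.04). The number called was 10 without Ccdc101 KO vehicle replicate 1. All 7 melanocytic markers were lower in the KO with vehicle, with sums of 12940 and 13274 CPM, and their part was not tested.

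Under TG, more members were lower than higher in the KO against control melanoma. Of 36 members 6 were higher and 18 lower, against 16.6% and 15% of all genes, and the V-ATPase accounted for 1 of the higher and 8 of the lower calls. Atp6v1b2 stood at 333 and 343 CPM in the KO against 448 and 435 CPM in control (log2 -0.38, SE 0.04). Atp6v0b, a proteolipid of the V0 rotor, stood at 132 and 132 against 174 and 179 CPM (log2 -0.41, SE 0.04), and Gla at 12.5 and 15.2 against 20.3 and 20.2 CPM (log2 -0.53, SE 0.11). These were picked as called members, and in each case both KO libraries were below both control libraries. The median log2 difference was -0.11 over the members and 0.01 over all genes, and no member differed by 2-fold. Of the 24 calls 9 were lost without some single library, and DESeq2 called 3 members higher in place of 6. Mannose 6-phosphate sorting genes were higher in 1 and lower in 8 of 10, and Mitf was lower by log2 0.86 (173 and 179 against 322 and 321 CPM). All 7 melanocytic markers were lower too (sums of 10316 and 10339 CPM), and their part was not tested.

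The direct test of the difference between the 2 TG responses called 2 members with a more positive and 11 with a more negative log2 change in the KO, of 36, where 7.16% of all genes were more positive and 5.95% more negative. The V-ATPase had 0 more positive and 4 more negative of 13. Gla differed by -0.63 (SE 0.17, adjusted p = 0.0106), Scarb2 by -0.49 (SE 0.07) and Neu1 by -0.47 (SE 0.08), while Atp6v1b2 and Atp6v0b each differed by -0.34. Scarb2 rose from 59.5 and 61.6 to 91.9 and 90.9 CPM in control melanoma, and stood at 72.9 and 78.1 and then 79.7 and 83.8 CPM in the KO, where its change did not pass (adjusted p = 0.0514). Ctsl had the larger rise in the KO (difference 0.34, SE 0.06), which began from a lower vehicle level. DESeq2 called 6 members for this difference and the fit without Ccdc101 KO TG replicate 1 called 8. The call of Gla was lost without control vehicle replicate 1, KO vehicle replicate 2 or KO TG replicate 1, and that of Glb1 (difference 0.30) without any of 5 of the 8 libraries and with DESeq2. In all, 7 of the 13 calls were lost without some single library, among them Atp6v1c1 and Atp6v1h of the V-ATPase. Outside the member list, Mitf and Tfeb also had a more negative log2 change in the KO. Their differences were -0.72 (SE 0.05) and -0.55 (SE 0.18, adjusted p = 0.0327).

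Activation of control T cells with vehicle changed nearly the whole list. The resting cells, kept in IL-2, IL-7 and IL-15, were not free of activation markers. Gzmb stood at 11378 and 10930 CPM and Il2ra at 1429 and 1381 CPM in them, while Ifng stood at 9.58 and 10.4 CPM. Of 36 members 15 rose and 19 fell, against 35.3% and 39.1% of all genes, and only Lamp2, a lysosomal membrane glycoprotein, and Atp6v1b2 did not pass. Lipid and thioester degradation fell in 3 of 4, each by more than 2-fold, and the membrane and cholesterol export genes fell in 4 of 5 with no rise. Glycosidases rose in 5 and fell in 2 of 7. The V-ATPase rose in 7 and fell in 5 of 13, and none of its members changed by 2-fold.

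Psap fell from 518 and 515 CPM at rest to 151 and 159 CPM (log2 -1.69, SE 0.04). Ctsd fell from 1093 and 1042 to 459 and 472 CPM (log2 -1.14, SE 0.04), and Ctss from 67.5 and 68.4 to 19.2 and 19.2 CPM (log2 -1.77, SE 0.08). Smpd1 fell from 160 and 158 to 65.2 and 66.6 CPM (log2 -1.21, SE 0.05), and the palmitoyl thioesterase gene Ppt1 from 93.7 and 88 to 41.2 and 38.6 CPM (log2 -1.13, SE 0.06). These falls, picked as the largest among called members, had adjusted p-values between 1.34e-41 for Psap and 1.17e-24 for Ppt1. Ctsz rose from 57.7 and 58 to 193 and 198 CPM (log2 1.81, SE 0.05). Gusb rose from 55.7 and 54.8 to 130 and 137 CPM (log2 1.33, SE 0.06), Gla from 11.2 and 9.95 to 18 and 21.9 CPM (log2 0.95, SE 0.12), and Atp6v0b from 74.6 and 73.1 to 131 and 124 CPM (log2 0.84, SE 0.05). The call of Ctsl (log2 0.99, under 5 CPM in both groups) was lost without resting vehicle replicate 1 or activated vehicle replicate 2.

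Other lysosomal hydrolases, membrane proteins and V-ATPase subunits mostly fell with activation. The remaining companion lists were mixed. Other lysosomal hydrolases rose in 3 and fell in 23 of 30, including Ctsw, a cathepsin of cytotoxic lymphocytes, from 335 and 308 to 67.4 and 66.7 CPM. Other lysosomal membrane proteins rose in 3 and fell in 16 of 24. Tfeb fell from 15.6 and 16.5 to 6.95 and 7.36 CPM, while Tfe3 rose by log2 0.18 (SE 0.07). Sorting genes rose in 6 and fell in 4 of 10, mTORC1 docking genes rose in 4 and fell in 5 of 18, and other V-ATPase subunits rose in 0 and fell in 4 of 6. Among the cathepsin inhibitors 4 rose and 2 fell of 7. Serpinb9, put in that list although it is the inhibitor that shields killer cells from granzyme B, rose from 239 and 220 to 2535 and 2576 CPM.

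Markers of other cells were low and moved with activation. The 9 myeloid markers summed to 2.57 and 2.27 CPM in resting vehicle libraries, with Csf1r, Fcgr1, C1qa and C1qb at 0 and Lyz2 at 0.0856 and 0 CPM, and to 0.479 and 0.465 CPM after activation. The 5 B cell markers summed to 5.48 and 4.33 CPM and then to 1.56 and 1.78 CPM, nearly all of it from Cd79b. Their part in the falls of Ctss, Ctsd and Psap was not tested.

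TG in resting control T cells lowered more members than it raised. Of 36 members 9 rose and 20 fell, against 34.1% and 35.2% of all genes, with a median log2 change of -0.20 over the members and 0.01 over all genes. Hydrolase and membrane members rose in 3 and fell in 14 of 23, and V-ATPase members rose in 6 and fell in 6 of 13. All 4 genes of lipid and thioester degradation fell, and glycosidases fell in 4 of 7 with no rise.

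Ctsl showed the largest change of any member in any TG comparison. It stood at 1.45 and 2.17 CPM with vehicle and 43.8 and 45.4 CPM with TG (log2 4.62, SE 0.16, adjusted p = 6.17e-32), below the 127 and 123 CPM of untreated melanoma. Melanocytic markers summed to 5.65 and 5.91 CPM before and 7.37 and 5.82 CPM after TG in these libraries, and myeloid markers to 2.57 and 2.27 before and 1.29 and 0.832 CPM after. Atp6ap2, the accessory subunit also called the prorenin receptor, rose from 60 and 53.6 to 100 and 101 CPM (log2 0.81, SE 0.06), and Atp6v1b2 from 136 and 129 to 205 and 209 CPM (log2 0.63, SE 0.04). Ctsd fell from 1093 and 1042 to 297 and 296 CPM (log2 -1.86, SE 0.04), and Psap from 518 and 515 to 231 and 227 CPM (log2 -1.19, SE 0.04). The other large falls were Ctss, from 67.5 and 68.4 to 29.9 and 30.2 CPM (log2 -1.19, SE 0.07), and Atp6v0a1, from 31.6 and 32.7 to 15.1 and 14.4 CPM (log2 -1.13, SE 0.10). Cathepsins therefore moved apart, with both TG libraries far above vehicle for Ctsl and far below it for Ctsd.

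The companion lists were mixed in the same comparison. Tfeb fell from 15.6 and 16.5 to 6.96 and 6.29 CPM and Tfe3 rose from 41.1 and 38 to 66.9 and 65.3 CPM. Mitf, at most 1.60 CPM in T cells, rose by log2 1.51. Other lysosomal hydrolases rose in 8 and fell in 16 of 30, with Arsb, a sulfatase, down by log2 2.21. Other membrane proteins rose in 10 and fell in 8 of 24, and Slc29a3, a lysosomal nucleoside transporter, rose from 23.9 and 24 to 271 and 272 CPM. M6pr, the small mannose 6-phosphate receptor, rose from 213 and 208 to 857 and 850 CPM, among 3 rises and 5 falls in 10 sorting genes. mTORC1 docking genes rose in 7 and fell in 9 of 18, other V-ATPase subunits rose in 3 and fell in 3 of 6, with the V0 a3 subunit Tcirg1 falling from 99.5 and 99.6 to 35 and 32.6 CPM, and cathepsin inhibitors rose in 2 and fell in 5 of 7. Of the 10 activation markers 8 were higher and 1 was lower, while their sum, which was not tested, was smaller at 9370 and 9377 CPM. Gzmb, the granzyme B gene, made up most of the vehicle sum and went from 11378 and 10930 to 1624 and 1600 CPM. The part of this shift in the member changes was not tested.

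TG in activated control T cells raised 15 and lowered 13 of 36 members, against 32.6% and 32.4% of all genes. The V-ATPase rose in 7 and fell in 2 of 13, hydrolase and membrane members rose in 8 and fell in 11 of 23, and glycosidases rose in 1 and fell in 5 of 7. Ctsl went from 2.64 and 4.42 to 21.7 and 21.7 CPM (log2 2.64, SE 0.15). Atp6v1b2 went from 121 and 130 to 276 and 285 CPM (log2 1.14, SE 0.04), the only V-ATPase member past 2-fold. Ctsz fell from 193 and 198 to 89.9 and 84.5 CPM (log2 -1.18, SE 0.04), Gusb from 130 and 137 to 62.4 and 64.2 CPM (log2 -1.10, SE 0.06), and Ctss from 19.2 and 19.2 to 9.22 and 7.57 CPM (log2 -1.22, SE 0.12). Ctsz, Gusb and Neu1, which rose on activation with vehicle, thus fell with TG in activated cells. Psap, at 151 and 159 CPM with vehicle and 163 and 164 CPM with TG, did not pass the test (adjusted p = 0.212). Tfe3 again rose (log2 0.65) and Tfeb fell (log2 -0.84). Other hydrolases rose in 14 and fell in 7 of 30, other membrane proteins rose in 14 and fell in 3 of 24, sorting genes rose in 3 and fell in 5 of 10, mTORC1 docking genes rose in 7 and fell in 4 of 18, other V-ATPase subunits rose in 3 and fell in 1 of 6, and cathepsin inhibitors rose in 2 and fell in 4 of 7. The activation markers were higher in 3 and lower in 7 of 10 cases, with sums of 25130 and 25032 CPM with TG against 36830 and 37600 CPM with vehicle, and their part in these changes was not tested.

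**Figure D3:**
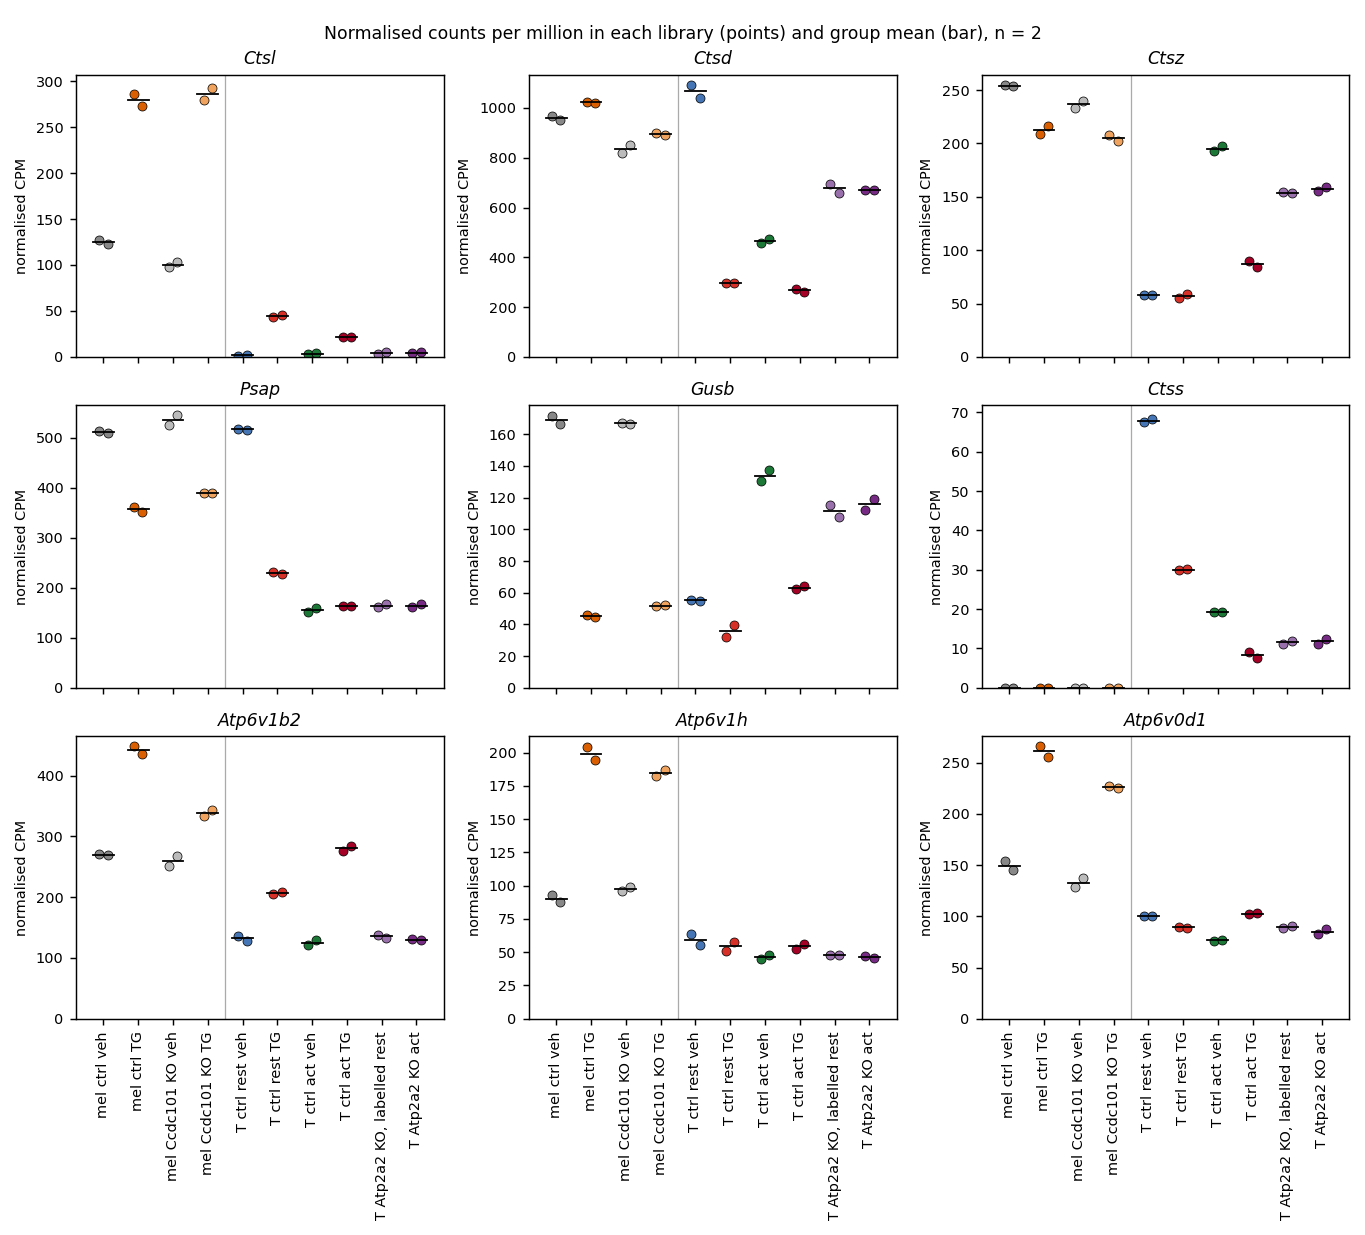
Normalised CPM of 9 members in each library (points) with the group mean (bar), melanoma left and T cells right of the grey line; each axis starts at 0. Ctsl rises with TG in all 4 pairs of groups, from 127 and 123 to 286 and 273 in control melanoma and from 1.45 and 2.17 to 43.8 and 45.4 in resting T cells, and the labelled resting Atp2a2 KO libraries lie with the activated KO in every panel.

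The difference between the TG responses of activated and resting T cells was tested directly. The log2 change was more positive in activated cells for 17 and more negative for 10 of 36 members, against 26.7% and 25.2% of all genes. Differences were 1.36 (SE 0.13) for Atp6v0a1, 1.25 (SE 0.06) for Psap and 1.04 (SE 0.05) for Ctsd, which had fallen with TG at rest. They were -1.97 (SE 0.29) for Ctsl, -1.15 (SE 0.07) for Ctsz and -0.59 (SE 0.12) for Neu1. For Psap and Ctsd the activated vehicle level was already below the resting one (151 and 159 CPM, and 459 and 472 CPM). In activation under TG, 14 of 36 members rose and 11 fell, against 32% and 31.9% of all genes. There the V-ATPase rose in 7 and fell in 0 of 13. Atp6v1a went from 90.2 and 94.3 CPM in resting to 157 and 162 CPM in activated TG libraries (log2 0.84, SE 0.05), and Ctsz from 55.4 and 58.9 to 89.9 and 84.5 CPM (log2 0.66, SE 0.05).

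KO of Atp2a2 in activated T cells changed members about as often as other genes. Of 36 members 6 were higher and 7 lower, against 17.5% and 19.6% of all genes, and no member differed by 2-fold. DESeq2 called 8 members in all. Ctsd was higher at 670 and 672 CPM against 459 and 472 CPM in activated control cells (log2 0.51, SE 0.04, adjusted p = 6.22e-18), and Ppt1 at 50.8 and 52.1 against 41.2 and 38.6 CPM (log2 0.34, SE 0.06). Ctss was lower at 11.1 and 12.5 against 19.2 and 19.2 CPM (log2 -0.74, SE 0.10), and Ctsz at 155 and 159 against 193 and 198 CPM (log2 -0.33, SE 0.04). Both libraries of the KO lay outside the control range for all 4, which were picked as called members. Ctsl, at 4.26 and 5.07 against 2.64 and 4.42 CPM, did not pass (log2 0.41, SE 0.20, adjusted p = 0.116). Atp6v1b2 differed by log2 0.04 and did not pass. Other lysosomal hydrolases were higher in 9 and lower in 3 of 30, other membrane proteins higher in 6 and lower in 1 of 24, other V-ATPase subunits higher in 2 and lower in 0 of 6, and cathepsin inhibitors higher in 5 and lower in 1 of 7. The melanocytic markers summed to 1.34 and 1.12 CPM here against 5.21 and 7.44 CPM in activated control cells. Sorting genes and mTORC1 docking genes each had 2 higher and 2 lower, of 10 and 18.

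Drug and knockout were then compared with each other in activated cells. TG-treated control cells were higher than the KO for 15 and lower for 12 of 36 members, against 30.5% and 30% of all genes. Ctsl was higher with TG (21.7 and 21.7 against 4.26 and 5.07 CPM, log2 2.24, SE 0.14), as was Atp6v1b2 (276 and 285 against 131 and 129 CPM, log2 1.11, SE 0.04). Ctsd was lower with TG (272 and 262 against 670 and 672 CPM, log2 -1.33, SE 0.04), and so was Gusb (62.4 and 64.2 against 112 and 119 CPM, log2 -0.87, SE 0.06). Relative to the vehicle controls that both share, Ctsd was lower with TG and higher in the KO, while Ctss and Ctsz were lower in both. The TG group had drug for 8 h, whereas the time since gene disruption is not given in the sources used here, so the 2 are not matched in time.

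The libraries labelled resting Atp2a2 KO, set against resting control, gave 15 higher and 17 lower of 36 members, against 33.7% and 35.9% of all genes. Their values lay near the activated KO: Ctsz at 154 and 154 CPM beside 155 and 159, Psap at 162 and 167 beside 161 and 167, and Gusb at 115 and 108 beside 112 and 119 CPM. The largest log2 difference of any member from the activated KO was 0.17 in size.

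TG responses in control melanoma and resting T cells share no library, and their difference was tested over all 20 libraries. Of 37 members 16 had a more positive and 12 a more negative log2 change in melanoma, where 23.6% of all genes were more positive and 23.8% more negative. The 37 include Ctss, not tested within melanoma, and Ctsh, not tested within T cells. For these genes the difference of responses has no measured response on 1 side. Ctsd differed by 1.94 (SE 0.05), Atp6v1h by 1.28 (SE 0.08) and Atp6v0a1 by 1.21 (SE 0.10). Ctsl differed by -3.47 (SE 0.17), Gusb by -1.26 (SE 0.09) and Atp6v1e1 by -1.04 (SE 0.08). The V-ATPase had 7 more positive and 3 more negative of 13.

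With TG, 9 of the 35 members tested in both cell types rose in control melanoma and fell in resting T cells, where 6.32% of the genes tested in both did: Atp6v0a1, Atp6v0d1, Atp6v1d, Atp6v1h, Ctsd, Neu1, Npc1, Scarb2 and Smpd1. Of these the melanoma calls of Ctsd, Atp6v0a1 and Smpd1 and the T cell call of Atp6v1h were each lost under at least 1 other setting. Scarb2, for which both calls held in the settings run, went from 59.5 and 61.6 to 91.9 and 90.9 CPM in melanoma and from 159 and 155 to 109 and 112 CPM in resting T cells. Npc1, the membrane cholesterol exporter, went from 101 and 94.8 to 144 and 136 CPM and from 187 and 179 to 133 and 128 CPM. Only Atp6v0c and Atp6v1e1, of the 35, fell in melanoma and rose in resting T cells with TG, as did 6.96% of genes, with log2 changes of -0.19 and 0.47 and of -0.78 and 0.24. The Atp6v0c calls were lost without control melanoma vehicle replicate 2 or either TG library, and without resting vehicle replicate 1 or TG replicate 2.

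Of the 35 members tested in both cell types, 3 rose and 6 fell with TG in all 4 comparisons, where 13.5% of the genes tested in all 4 rose and 13.8% fell in all of them. Ctsl, Atp6v1b2 and Atp6v0b rose, and Gusb, Glb1, Ctsa, Asah1, Npc2 and Atp6v0a2 fell. For Atp6v0b the log2 changes were 0.56 and 0.21 in control and KO melanoma and 0.35 and 0.46 in resting and activated T cells. Asah1, acid ceramidase, had -0.60, -0.48, -0.54 and -0.56 in the same order. For Gusb the 4 were -1.89, -1.69, -0.65 and -1.10. The V0 a2 subunit gene Atp6v0a2 had -0.47, -0.59, -0.70 and -0.41.

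The other members had these values. Atp6ap1, an accessory subunit of the pump, lay between 137 and 198 CPM in all 20 libraries, and its TG log2 changes were -0.01, 0.11, 0.08 and 0.12 in control melanoma, KO melanoma, resting and activated T cells, of which the second and the last passed. Both calls were lost without replicate 1 of either group compared. Atp6v1c1, the V1 subunit C gene, lay between 171 and 240 CPM in melanoma and between 68.3 and 89.4 CPM in T cells, and it rose with TG in all but activated T cells (log2 0.37, 0.12 and 0.28, and 0.04 in activated cells). Its call in KO melanoma was lost without replicate 2 of either group. Lamp2 rose with TG in control melanoma and in both T cell states (log2 0.21, 0.49 and 0.38) and did not pass in KO melanoma (0.08). Gaa, the acid alpha-glucosidase, passed with TG only in activated T cells among these 4 comparisons, with a log2 change of -0.51, and it rose by 0.72 on activation with vehicle. Naglu, a heparan sulfate glucosaminidase, fell with TG in KO melanoma (log2 -0.30) and resting T cells (log2 -0.39) and fell by 0.71 on activation. Mcoln1 lay between 21.7 and 41.4 CPM in all libraries, and rose with TG in control melanoma and in activated T cells (log2 0.40 and 0.36).

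**Figure D4:**
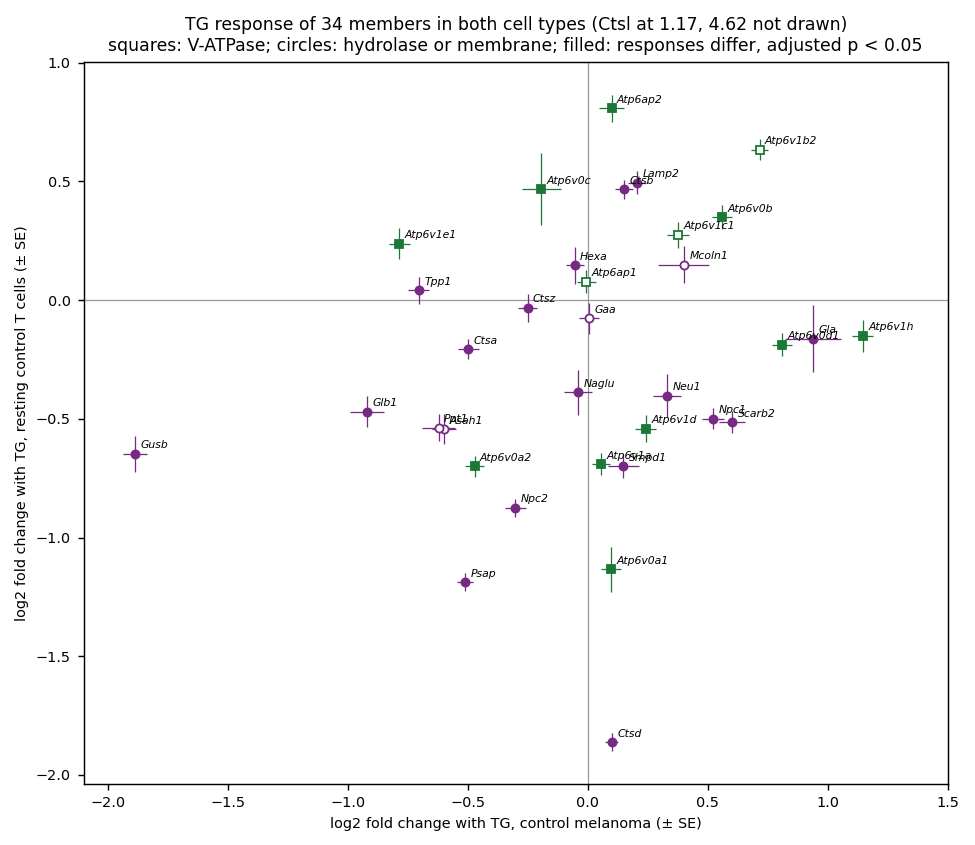
Log2 change with TG in control melanoma (x) and in resting control T cells (y) for the members tested in both, with SE bars; squares are V-ATPase and circles hydrolase or membrane members, and filled symbols mark responses that differ at an adjusted p below 0.05. Ctsl, at 1.17 and 4.62, is named in the title and lies outside the axes; Ctsd (0.10 and -1.86) and Gusb (-1.89 and -0.65) lie farthest from the other points.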

How the data were processed

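Total RNA of 20 libraries was sequenced, and the authors deposited 1 table of raw whole-number counts per gene. The submitters' processing notes name STAR 2.6.0c, HTSeq and the builds GRCm38 and mm10. The gene annotation and strand setting are not given in the sources used here. Depth was 9985311 to 17462770 counts per library, which limits genes near 1 CPM most. Libraries were grouped by their labels, 2 per group, and in every group they differed by more than counting noise (chi-square per degree of freedom 1.47 to 3.31).

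Counts were fitted with edgeR 4.0.16 (robust quasi-likelihood F test, TMM scaling, filterByExpr by group, R 4.3.3), with Benjamini-Hochberg adjustment over all genes tested and a threshold of 0.05. Melanoma fits held 8 libraries and 12540 genes, T cell fits 12 and 13432, and fits across cell types 20 and 14824, which left 4, 6 and 10 residual degrees of freedom. Of the members, Ctss was not tested in melanoma and Ctsh not in T cells. Positions, exon lengths and overlaps come from GENCODE M21 (GRCm38), and promoters from RefSeq tables of GRCm38.p6. The scripts were tested on simulated data.

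The members and all gene lists were chosen with earlier results of these data known. Named members are up to 5 called genes with the largest rise and up to 5 with the largest fall per comparison (3 each way for differences between responses), with at least 5 CPM in the higher group. Up to 3 genes each way were eligible from each companion list, and Tfeb, Tfe3, Tfec, Mitf and the targeted genes were always eligible. Other members named in the text, and examples such as Igf2r, were chosen after their values were seen. Companion and marker genes are background, and their lists hold other lysosomal hydrolases, other lysosomal membrane proteins, other V-ATPase subunits, the MiT family, sorting, mTORC1 docking, cathepsin inhibitors, and melanocytic, CD8 T cell, activation, myeloid and B cell markers. The cathepsin inhibitor list also counts Serpinb9, the granzyme B inhibitor.

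Alternatives were relative log expression scaling, DESeq2 1.42.0, a filter of 5 CPM in 2 libraries or none, only the compared groups, a replicate block, a fit without the libraries labelled resting Atp2a2 KO, and leaving out each library in turn. Same-numbered libraries of different groups did not deviate together, so the numbers were not taken to pair them. One marker gene of another cell type is not reported here and is left out of its list.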

Additional observations from a re-analysis of the deposited data

Results flagged for a closer look

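The tests of differences between TG responses are listed here because the same drug gave different responses in different groups. Between Ccdc101 KO and control melanoma, 2 of 36 members had a more positive and 11 a more negative log2 change in the KO. Of all genes 7.16% were more positive and 5.95% more negative. The differences were 0.34 for Ctsl, 0.30 for Glb1, -0.63 for Gla, -0.49 for Scarb2 and -0.47 for Neu1. Of these 13 calls 7 were lost without some single library, those of Gla, Glb1, Naglu, Tpp1, Npc1, Atp6v1c1 and Atp6v1h.

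Between activated and resting T cells, 17 of 36 members had a more positive and 10 a more negative log2 change with TG in activated cells. The shares over all genes were 26.7% and 25.2%. The differences were 1.36 for Atp6v0a1, 1.25 for Psap, 1.04 for Ctsd, -1.97 for Ctsl, -1.15 for Ctsz and -0.59 for Neu1. Between control melanoma and resting T cells, 16 of 37 members had a more positive and 12 a more negative log2 change in melanoma. These 37 include Ctss and Ctsh, each tested within only 1 of the 2 cell types. Here the shares over all genes were 23.6% and 23.8%. The differences were 1.94 for Ctsd, 1.28 for Atp6v1h, 1.21 for Atp6v0a1, -3.47 for Ctsl, -1.26 for Gusb and -1.04 for Atp6v1e1.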

How the results depend on the processing

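Over all comparisons, 75 of 387 member calls were lost without some single library, with 1644 fits that kept a call and 176 that lost it. With DESeq2, 332 member calls stayed past the threshold and 54 did not, beside 383 and 4 with the filter of 5 CPM in 2 libraries, 380 and 7 with relative log expression scaling, 377 and 10 in fits of only the compared groups, 242 and 2 without the libraries labelled resting Atp2a2 KO, and 357 and 29 with no filter. With no filter the log2 change of Ctsb on activation became 0.0124 in place of -0.09. For the difference between TG responses of KO and control melanoma, DESeq2 called 6 members in place of 13, and leaving out 1 library gave 8 to 11. For the Ccdc101 KO with vehicle, leaving out 1 library gave 10 to 13 in place of 16. For the activated Atp2a2 KO, DESeq2 called 8 in place of 13. The libraries labelled resting Atp2a2 KO had 32 called members against resting control and 0 against the activated KO, an alternative chosen after seeing the data. The causes were not tested. With the replicate block, 29 members were called in place of 30 for TG in control melanoma and 28 in place of 29 for TG in resting T cells, and 382 member calls stayed while 5 did not; same-numbered libraries correlated by -0.0716 to 0.0888. With 2 libraries a group and counts below about 5 CPM, as for Ctsl in vehicle-treated T cells, fold changes are the least precise. The class sums moved by -8.33% to 13.1% with unscaled totals.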
